A study of Mus musculus with 16 samples.

Results

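The 10 alpha and beta tubulin genes Tuba1a, Tuba1b, Tuba1c, Tuba4a, Tubb2a, Tubb2b, Tubb3, Tubb4a, Tubb4b and Tubb5 were followed by RNA sequencing through the somatodendritic and axonal compartments of cultured mouse motoneurons with and without hnRNP R. They were taken by gene symbol from a table of 46320 genes and comprised 4 alpha and 6 beta isotypes. Motoneurons had been enriched by p75NTR panning from lumbar spinal cords at embryonic day 13 and grown in microfluidic chambers that let axons cross into a separate compartment. CNTF was present at 5 ng/ml on both sides and BDNF at 20 ng/ml on the axonal side of every culture. The 4 groups were the +/+ (labelled WT) somatodendritic, +/+ axonal, Hnrnpr-/- (labelled KO) somatodendritic and Hnrnpr-/- axonal compartments, with 4 libraries each and 16 in all. The Hnrnpr-/- mice carry a CRISPR/Cas9 deletion of the first exons of Hnrnpr and had been backcrossed to C57Bl/6, and the +/+ cultures lack that deletion.

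Microtubules are hollow polymers of heterodimers that each pair an alpha with a beta tubulin. Mammals encode several isotypes of both, which are nearly identical in their folded core and differ most in the acidic carboxy-terminal tail on the microtubule surface, where glutamate chains, tyrosine removal and the binding of motors act. Tuba1a is the main alpha isotype of newly formed neurons and mutations in it cause cortical malformations in humans. Tubb2a and Tubb2b are abundant neural beta isotypes, Tubb3 is largely restricted to neurons and is used as a neuronal marker, Tubb4a is enriched in brain and in myelinating glia, and Tuba1b, Tuba1c, Tubb4b and Tubb5 are expressed in many cell types. The proportions of these transcripts in the axon bear on which isotypes could be made there.

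The last 60 coding bases, stop codon included, encode the tail and show how closely the beta isotypes resemble each other at the level that a sequencing read sees. They were read from the GRCm39 genome at the coding ends annotated by GENCODE, and 4 are shown, for the closest beta pair and for the beta isotypes whose shares of the pool differed most between compartments. Capitals mark bases that differ from Tubb2a in a pairwise alignment.
Tubb2a, chr13:34258451-34258510, minus strand: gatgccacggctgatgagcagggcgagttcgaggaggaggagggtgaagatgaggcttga
Tubb2b, chr13:34311454-34311513, minus strand: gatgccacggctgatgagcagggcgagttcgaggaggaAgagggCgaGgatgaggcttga
Tubb3, chr8:124148362-124148421, plus strand: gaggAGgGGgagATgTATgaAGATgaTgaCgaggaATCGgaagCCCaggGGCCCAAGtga
Tubb4b, chr2:25112320-25112379, minus strand: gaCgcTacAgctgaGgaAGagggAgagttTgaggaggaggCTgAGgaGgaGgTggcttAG
Tubb2b differed from Tubb2a at 3 of these bases, whereas Tubb4b differed at 17 and Tubb3 at 30. Over the whole coding sequence Tuba1a and Tuba1b were 98.3% identical, Tuba1a and Tuba1c 97.1%, and Tubb2a and Tubb2b 96.5%. The genes for Tuba1b (chr15:98829310-98832271, minus strand), Tuba1a (chr15:98847728-98851382, minus strand) and Tuba1c (chr15:98927772-98935986, plus strand) lie near each other, as do those for Tubb2a (chr13:34258261-34261991) and Tubb2b (chr13:34310991-34314337), both on the minus strand. Any alpha gene shared at most 56.3% with any beta gene.

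Reads were 100 bases long, and a read that maps to several genes had been divided among them, so each coding sequence was cut into all its windows of 100 bases and each window was looked up on either strand in every other GENCODE transcript. Tuba4a, Tubb3 and Tubb4a had no window in any other gene. Their deposited values were still not whole in 10, 15 and 12 of the 16 libraries, and untranslated regions were not looked up. Tubb5 had none at another locus, although 78.9% of its windows lay within transcripts of the overlapping gene Flot1, which lies on the opposite strand. Among the other isotypes, 85.8% of the windows of Tuba1b, 80.4% of Tuba1c and 67.8% of Tuba1a occurred at another locus, as did 46.7% of Tubb2b, 45.0% of Tubb2a and 35.3% of Tubb4b. Bphl transcripts, also from the opposite strand, covered 79.9% of the Tubb2a windows at the locus itself. The windows of Tuba1a, Tuba1b and Tuba1c were shared with each other and with predicted genes, and up to 22 of them with Slc7a11. Tubb2a and Tubb2b shared 543 windows with each other, and the same number of Tubb2b windows occurred in Bphl transcripts. Windows of Tubb4b were shared mainly with the pseudogene Tubb4b-ps1. The values of Tuba1a, Tuba1b and Tuba1c, and those of Tubb2a and Tubb2b, therefore depend on how the split was made, and levels summed over each set are given beside them.

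**Figure D1:**
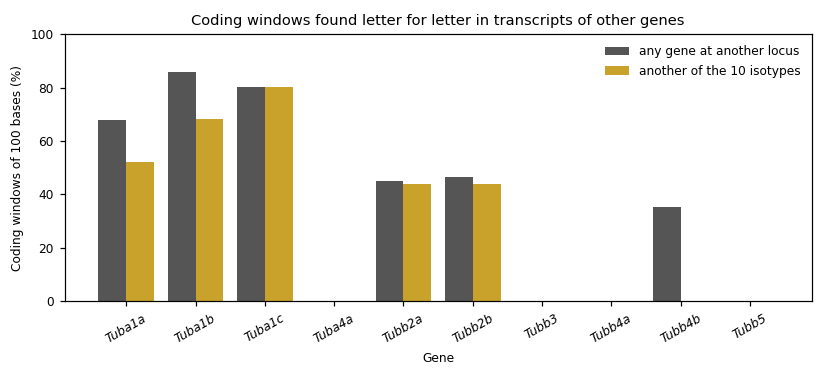
Percentage of the 100-base windows of each coding sequence found letter for letter in a transcript of a gene at another locus (grey) and in another of the 10 isotypes (yellow). Tuba4a, Tubb3, Tubb4a and Tubb5 have no bars, while Tuba1b reaches 85.8%.

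Libraries held between 22024923 and 34864151 counts, and 19964 genes passed the filter on low counts, all 10 isotypes among them. Hnrnpr, the targeted gene, had 3922 to 15608 counts in the +/+ libraries and 13 to 38 in the Hnrnpr-/- libraries, so each library matched its genotype label. Markers of cholinergic motoneurons were barely detected, since the 6 markers examined (Chat, Slc18a3, Slc5a7, Isl1, Mnx1 and Prph) summed to between 13 and 29.7 CPM (counts scaled to a common library total) in the +/+ somatodendritic libraries and Mnx1 had no count in any somatodendritic library. Counts of markers called are to be read against the 30.1% of all genes called higher and 27.4% called lower in +/+ axons, and 27.5% and 26.8% in Hnrnpr-/- axons. Of the 5 motoneuron markers tested, 2 were called lower in the axons of either genotype by edgeR. The 7 pan-neuronal markers summed to between 4290 and 5380 CPM in the +/+ somatodendritic and between 329 and 1820 CPM in the +/+ axonal libraries. In Hnrnpr-/- they summed to between 3580 and 5290 CPM in somatodendritic and between 184 and 3060 CPM in axonal libraries. All 7 were called lower in the axonal compartment of both genotypes by edgeR. In the opposite direction, 6 pericyte or smooth muscle markers (Acta2, Tagln, Cnn1, Myh11, Rgs5 and Mgp) summed to between 19.4 and 408 CPM in +/+ somatodendritic and between 1260 and 11200 CPM in +/+ axonal libraries, and 5 were called higher in +/+ and 4 in Hnrnpr-/- axons, where they went from between 32.1 and 234 CPM to between 2120 and 9980 CPM. The 6 astrocyte or radial glia markers went from between 958 and 1340 CPM to between 1900 and 4640 CPM in +/+, with 3 called higher. In Hnrnpr-/- they went from between 891 and 1980 CPM to between 1860 and 3710 CPM, which overlap, with 1 called higher. For the other lists in +/+ axons, 1 oligodendroglia or Schwann cell marker of 5 tested was called higher, no fibroblast or meningeal marker of 6 and no microglial marker of 6 was called, 1 endothelial marker of 4 was called higher and 2 lower, and 2 nuclear RNAs of 5 were called higher and 2 lower. Hnrnpr-/- axons gave the same counts for these lists apart from 1 nuclear RNA called higher, 2 endothelial markers had no count in +/+ axons, and no marker was called between genotypes. The part of these cells in the tubulin values was not tested, and in bulk RNA fewer cells of a type and less RNA per cell cannot be told apart.

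The first question was how abundant each isotype is. Levels between genes are compared here as CPM per kilobase of annotated exon, with CPM scaled by TMM factors. In +/+ somata Tuba1a was by far the most abundant at 5953 ± 477 CPM per kb (mean ± SD, n = 4), followed by Tubb2a at 1959 ± 120 (SD, n = 4). Tuba1b at 1032 CPM per kb, Tubb2b at 987, Tuba1c at 890, Tubb3 at 775 and Tubb5 at 584 formed a series in which the libraries of each neighbouring pair overlapped. Tubb4a at 227 and Tubb4b at 208 CPM per kb also overlapped, and Tuba4a was lowest at 42.9 CPM per kb. The 10 genes took 1.85 to 2.19% of all counts in +/+ somata.

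In +/+ axons the ends of the order were the same and its middle was not. Tuba1a remained first at 3699 ± 201 CPM per kb (SD, n = 4) and Tuba4a last at 10.2 CPM per kb. Tubb2a, at 816 CPM per kb, overlapped with Tuba1b at 799, and Tuba1b with Tuba1c at 612. Below them came Tubb2b at 451, Tubb5 at 342, Tubb4b at 302 and Tubb3 at 195 CPM per kb, with overlapping neighbours, and then Tubb4a at 71.0 CPM per kb, which overlapped with Tubb3. Tubb3 thus stood sixth of 10 in somata and eighth in axons, and Tubb4b ninth and seventh. The 10 genes took 1.16 to 1.41% of all counts in +/+ axons, 1.14 to 1.62% in Hnrnpr-/- axons and 1.70 to 2.22% in Hnrnpr-/- somata.

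**Figure D2:**
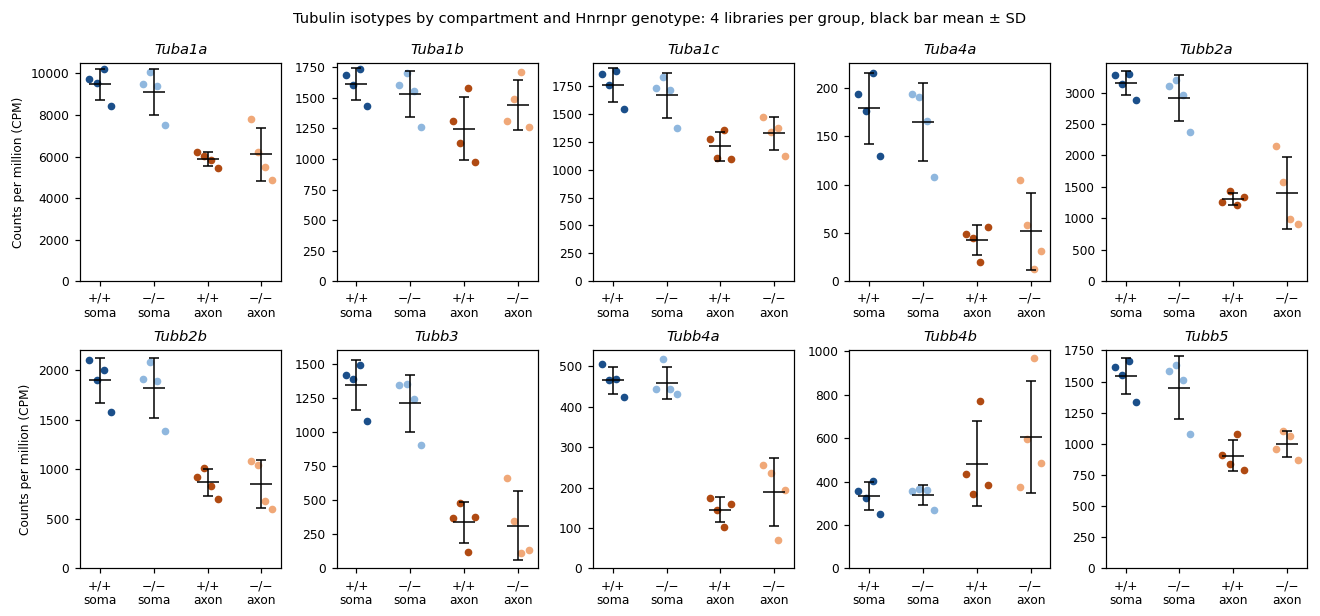
CPM of each isotype in every library (points, replicates 1 to 4 from left to right) with the group mean ± SD (black), on a linear axis from 0 that differs between panels. In the +/+ panels 8 isotypes have axonal points entirely below the somatodendritic points, and Tuba1b and Tubb4b do not.

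The comparison of the axonal with the somatodendritic compartment in +/+ cultures asked which isotype transcripts are depleted or retained in axons. edgeR called 8 of the 10 isotypes lower in axons and none higher at an adjusted p under 0.05, where 27.4% of all genes tested were called lower, 30.1% higher and 57.5% in either direction. The median log2 difference of the 10 was -0.95 against 0.07 over all genes tested. The libraries of the compartments did not overlap for the same 8 isotypes, as for 52.4% of all genes. The sizes ranged from about 4-fold for Tubb3 and Tuba4a to 1.46-fold for Tuba1c.

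Tubb3, the neuronal beta isotype, had 1424, 1389, 1496 and 1083 CPM in the 4 +/+ somatodendritic libraries and 373, 479, 124 and 378 CPM in the 4 axonal libraries. All axonal values were far below all somatodendritic values, and the third axonal library was the lowest. The axonal level was 3.98-fold lower (95% confidence interval of the log2 difference -3.03 to -0.95, edgeR adjusted p = 0.0031).

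Tuba4a, an alpha isotype known to be encoded without a final tyrosine, was at 193, 177, 216 and 130 CPM in +/+ somata and 49.2, 45.1, 19.9 and 55.9 CPM in axons. Again the groups did not overlap and the third axonal library was lowest. The axonal level was 4.2-fold lower (log2 difference -2.07 ± 0.48 SE, edgeR adjusted p = 0.0023). Both genes had no coding window in common with another gene.

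Tubb4a went from 504.5, 467, 468 and 423 CPM in +/+ somata to 175, 145, 102 and 160 CPM in axons. The groups were far apart, with a 3.20-fold lower axonal level (log2 -1.68 ± 0.29 SE, edgeR adjusted p = 0.00034). Tubb4a shares no coding window either.

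The beta pair Tubb2a and Tubb2b moved by similar amounts. Tubb2a was at 3283, 3134, 3298 and 2881 CPM in +/+ somata and at 1264, 1430, 1215 and 1338 CPM in axons, a tight axonal group without overlap (2.40-fold lower, edgeR adjusted p = 0.00037). Tubb2b was at 2107, 1897, 2005 and 1580 CPM and at 926, 1013, 830.5 and 697 CPM (2.19-fold lower, edgeR adjusted p = 0.00045). Summed, the pair had 5046 ± 419 CPM in somata and 2178 ± 190 CPM in axons (SD, n = 4), a log2 ratio of -1.21. A split of reads between these 2 genes cannot affect that ratio. Reads divided with Bphl or the pseudogene Tubb2a-ps2, which share windows with both, could affect it.

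Tubb5, Tuba1c and Tuba1b are the alpha and beta isotypes expressed in many cell types whose axonal estimates were below 0. Tubb5 was at 1620, 1551, 1668 and 1339 CPM in +/+ somata and at 914, 839, 1081 and 789 CPM in axons, without overlap (1.71-fold lower, edgeR adjusted p = 0.00095). Tuba1c was 1.46-fold lower (log2 -0.54 ± 0.14 SE, edgeR adjusted p = 0.0041). Tuba1b had 1685, 1604, 1734 and 1432 CPM in somata and 1312, 1134, 1578 and 972.5 CPM in axons, with the third axonal library inside the somatodendritic range. Its log2 difference of -0.37 ± 0.16 (SE) did not pass (edgeR adjusted p = 0.065), and without that library it was -0.46 (edgeR adjusted p = 0.030). It also passed in both fits with the replicate number in a block (edgeR adjusted p = 0.018 and 0.043), so its call depends on the fit.

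Tuba1a, the most abundant isotype, was at 9734, 9518, 10210 and 8418 CPM in +/+ somata and at 6219, 6021, 5833 and 5467 CPM in axons. No axonal value reached the lowest somatodendritic value, and the axonal level was 1.61-fold lower (log2 -0.69 ± 0.15 SE, edgeR adjusted p = 0.0016). Tuba1a, Tuba1b and Tuba1c together had 12843 ± 1042 CPM in somata and 8343 ± 594 CPM in axons (SD, n = 4), a log2 ratio of -0.62. The 9 other genes of the table that share windows with them summed to 2777 ± 200 and 1880 ± 218 CPM (SD, n = 4), a log2 ratio of -0.56.

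Tubb4b, a beta isotype that is also a main component of cilia, was the exception in sign. It had 356, 323.5, 403 and 252 CPM in +/+ somata and 433, 342, 771 and 384 CPM in axons. The groups overlapped and the third axonal library was the highest, with a log2 difference of 0.53 (95% confidence interval -0.09 to 1.16, edgeR adjusted p = 0.13). Without the third axonal libraries of both genotypes, an alternative chosen after seeing the data, the difference was 0.20 (edgeR adjusted p = 0.42), 9 isotypes were called lower and none higher, and Tubb3 was at -1.73.

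**Figure D3:**
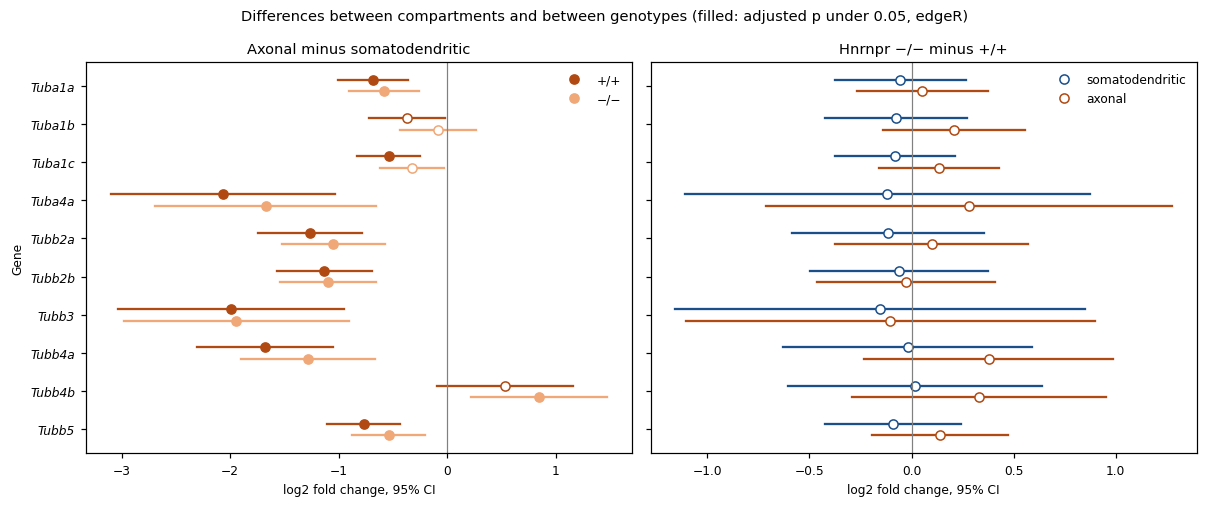
Log2 differences with 95% confidence intervals for each isotype, axonal minus somatodendritic within each genotype (left) and Hnrnpr-/- minus +/+ within each compartment (right), filled where the edgeR adjusted p is under 0.05. On the left all isotypes but Tubb4b lie below 0, and on the right no symbol is filled and every interval spans 0.

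Hnrnpr-/- cultures gave 7 isotypes called lower and 1 called higher in axons by edgeR, where 26.8% of all genes tested were called lower, 27.5% higher and 54.2% in either direction. The median log2 difference of the 10 was -0.82 against -0.003 over all genes. The Hnrnpr-/- difference compares other libraries than the +/+ difference, but both come from the same fit over 16 libraries and share its dispersions and scaling, and the genotype comparisons reuse the same libraries. Libraries did not overlap for Tuba4a, Tubb2a, Tubb2b, Tubb3, Tubb4a and Tubb4b, against 51.4% of all genes.

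Tubb3 was at 1346, 1352, 1243 and 907 CPM in Hnrnpr-/- somata and at 662.5, 347, 116 and 134.5 CPM in axons, a wide axonal group that still lay below every somatodendritic library (3.85-fold lower, edgeR adjusted p = 0.0040). Tuba4a fell from between 107.5 and 194 CPM to between 13.1 and 105 CPM (3.18-fold lower, edgeR adjusted p = 0.0088). Tubb4a went from between 431 and 518 CPM to 256, 236, 70.7 and 193 CPM (2.43-fold lower, edgeR adjusted p = 0.0022). The lowest Tubb4a and Tuba4a values were both those of the third axonal library. Without the first Hnrnpr-/- axonal library, which had the highest axonal values of Tubb3 and Tuba4a, the log2 differences went from -1.94 to -2.61 for Tubb3 and from -1.67 to -2.28 for Tuba4a, and both genes were still called by edgeR.

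Tubb2a had 3099, 3202, 2961 and 2376 CPM in Hnrnpr-/- somata and 2145, 1574, 987 and 908 CPM in axons (2.07-fold lower, edgeR adjusted p = 0.0014). Tubb2b was 2.14-fold lower in axons (log2 -1.10 ± 0.21 SE, edgeR adjusted p = 0.00064). Their sum went from 4729 ± 668 to 2253 ± 811 CPM (SD, n = 4), a log2 ratio of -1.07.

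Among the alpha genes, Tuba1a had 9483, 10050, 9395 and 7518 CPM in Hnrnpr-/- somata and 7800, 6234, 5494 and 4873 CPM in axons. The first axonal library lay above the fourth somatodendritic library, and the difference was log2 -0.58 ± 0.15 (SE, edgeR adjusted p = 0.0052). Tubb5 was also called, at -0.54 ± 0.16 (SE, edgeR adjusted p = 0.0095). Tuba1b was at -0.09 (edgeR adjusted p = 0.68), with a sign that reversed when library totals were used without scaling factors. Tuba1c was at -0.33 (edgeR adjusted p = 0.056), and it passed with the replicate number as a block (-0.33, edgeR adjusted p = 0.020) but not with genotype and number together as a block (edgeR adjusted p = 0.054). Summed, Tuba1a, Tuba1b and Tuba1c went from 12308 ± 1493 to 8869 ± 1376 CPM (SD, n = 4), a log2 ratio of -0.473.

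Tubb4b was the isotype called higher in Hnrnpr-/- axons. It had 355, 366, 360 and 267 CPM in somata and 375, 597, 969 and 486 CPM in axons, with the lowest axonal value just above the highest somatodendritic value. The difference was 1.80-fold (log2 0.85, 95% confidence interval 0.22 to 1.48, edgeR adjusted p = 0.024). This call rested on single libraries, since it was lost without the third axonal library (0.57, edgeR adjusted p = 0.092) or without the fourth somatodendritic library (0.74, edgeR adjusted p = 0.070). Without the third axonal libraries of both genotypes 7 isotypes were called lower and 1 higher, Tubb4b being at 0.52 (edgeR adjusted p = 0.042).

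The makeup of the tubulin transcript pool, as shares of the summed CPM per kb of the alpha or the beta genes, is given as a description without a test. The beta pool leaves out Tubb6, a beta gene outside the 10 that had 20.0 CPM in +/+ somata and 372 CPM in +/+ axons. Tuba1a made up 75.2 ± 0.3% of the alpha pool in +/+ somata and 72.4 ± 2.9% in +/+ axons, 75.5 ± 0.1% in Hnrnpr-/- somata and 70.1 ± 3.9% in Hnrnpr-/- axons (SD, n = 4). Tuba1b went from 13.03% to 15.5% in +/+ and from 12.9% to 17.2% in Hnrnpr-/-, and Tuba4a from 0.54% to 0.20% and from 0.51% to 0.22%. The somatodendritic shares of the Tuba1 genes differed by less than 1 percentage point between libraries, and part of the reads behind these shares were divided among them by the counting.

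The beta pool changed more. Tubb3 made up 16.3 ± 0.8% of it in +/+ somata and 8.94 ± 3.91% in +/+ axons, 15.7 ± 0.6% in Hnrnpr-/- somata and 7.03 ± 4.21% in Hnrnpr-/- axons (SD, n = 4). Tubb4b made up 4.37 ± 0.47% and 13.9 ± 5.5% in +/+, and 4.75 ± 0.14% and 17.3 ± 9.0% in Hnrnpr-/- (SD, n = 4). Compartments did not overlap for either gene in either genotype. Tubb5 went from 12.3% to 15.7% in +/+ and from 12.3% to 16.7% in Hnrnpr-/-, and Tubb2a from 41.4% to 37.6% and from 40.9% to 36.2%, with overlapping libraries for Tubb2a in both genotypes and for Tubb5 in Hnrnpr-/-. Tubb2b stayed between 16.97 and 22.97% in every library.

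The ratio of summed alpha to summed beta CPM per kb lay between 1.62 and 1.78 in all 8 somatodendritic libraries and between 2.12 and 2.64 in all 8 axonal libraries. Compartments thus did not overlap in this ratio in either genotype, while genotypes overlapped in both compartments. With Tubb6 added to the beta pool, an alternative chosen after seeing the data, the ratio was 1.62 to 1.70 in +/+ somata and 2.03 to 2.37 in +/+ axons, and 1.67 to 1.77 and 1.98 to 2.32 in Hnrnpr-/-. Tubb6 then made up 8.67 ± 5.64% of the beta pool in +/+ axons and 10.4 ± 8.4% in Hnrnpr-/- axons (SD, n = 4). Compartments still did not overlap for the ratio or the Tubb3 and Tubb4b shares, and they no longer overlapped for Tubb2a in +/+ and Tubb2b in Hnrnpr-/-. Tubb5 was below Tubb3 in every somatodendritic library, with ratios per kb of 0.733 to 0.812 that turn above 1 on average without division by length, and reached 0.948 to 6.03 times Tubb3 in the axonal libraries. The ratio of Tubb2b to Tubb2a overlapped between all groups.

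**Figure D4:**
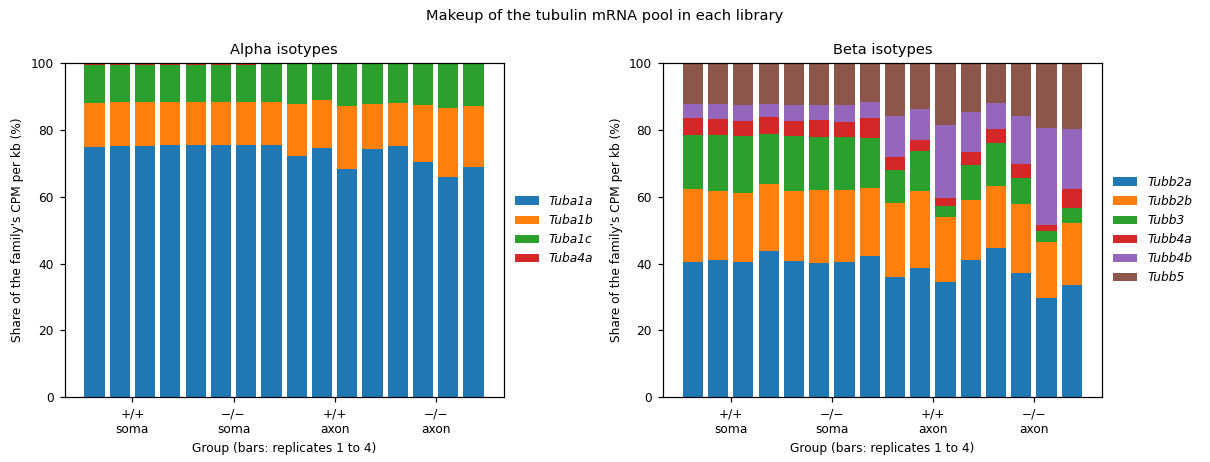
Percentage of the summed CPM per kb that each isotype takes among the 4 alpha genes (left) and the 6 beta genes (right), 1 stacked bar per library and 4 bars per group. Somatodendritic bars are nearly alike, and axonal bars hold less Tubb3 and more Tubb4b, up to 29.2% in the third Hnrnpr-/- axonal library.

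The comparison of Hnrnpr-/- with +/+ cultures asked whether loss of hnRNP R changes isotype transcript levels in either compartment. In somata edgeR called none of the 10 (smallest unadjusted p = 0.57), where 0.00501% of all genes were called, and no isotype had groups without overlap, as 1.58% of all genes did. No isotype had an unadjusted p under 0.05, as 0.601% of all genes did, and DESeq2 called none. Log2 differences ranged from -0.15 for Tubb3 to 0.015 for Tubb4b, 9 of them below 0, although Tubb4a turned above 0 with unscaled library totals. Every sign but those of Tubb2a and Tubb3 also turned when some single libraries were left out. The 95% confidence interval was -0.38 to 0.27 for Tuba1a, -0.58 to 0.36 for Tubb2a and -1.16 to 0.85 for Tubb3. Each gene's spread was estimated over all 16 libraries, axonal ones included, so these intervals do not measure the somatodendritic spread alone. The log2 ratio of the summed Tuba1a, Tuba1b and Tuba1c was -0.0614, and that of the summed Tubb2a and Tubb2b -0.0936.

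In axons edgeR also called none of the 10 (smallest unadjusted p = 0.21), where 0.01% of all genes were called, and none had groups without overlap, as 0.606% of all genes did. DESeq2 called none, and none had an unadjusted p under 0.05, as 3.88% of all genes did. Differences ranged from -0.10 for Tubb3 to 0.38 for Tubb4a, 8 of them above 0. The signs of Tuba1a, Tuba4a, Tubb2a, Tubb2b and Tubb3 turned when some single libraries were left out. Tubb4a was at 175, 145, 102 and 160 CPM in +/+ axons and at 256, 236, 70.7 and 193 CPM in Hnrnpr-/- axons, so that the Hnrnpr-/- libraries took both the lowest and the highest value, and its interval ran from -0.23 to 0.99. Tubb4b was at 0.33 (95% confidence interval -0.29 to 0.95), at 0.0178 without the third Hnrnpr-/- axonal library and at 0.66 without the third +/+ axonal library.

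For Tuba1a the axonal log2 difference was 0.05 with a 95% confidence interval of -0.27 to 0.37, the narrowest apart from Tuba1c at 0.13 (-0.16 to 0.43). For Tubb2a it was 0.10 (-0.37 to 0.57), for Tubb2b -0.03 (-0.46 to 0.41), for Tubb5 0.14 (-0.19 to 0.47) and for Tuba1b 0.21 (-0.14 to 0.56). As Hnrnpr-/- to +/+ ratios the 6 intervals reached from 0.726 (Tubb2b) to 1.48 (Tubb2a), and they do not show that the levels were equal. The interval of this ratio was wider for Tubb3, from 0.465 to 1.86, and for Tuba4a, from 0.61 to 2.42. The log2 ratio between axons of the genotypes was 0.0882 for the summed Tuba1a, Tuba1b and Tuba1c. For the summed Tubb2a and Tubb2b it was 0.0488.

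A direct test of whether the compartment difference depends on genotype called none of the 10 isotypes (smallest unadjusted p = 0.24), where edgeR called 0.0% of all genes. Over all genes 265 had an unadjusted p under 0.05, none of them an isotype, and DESeq2 called 1 gene with default settings. All 10 estimates were above 0 (Tubb3 turned below 0 with the replicate block), from 0.03 for Tubb2b to 0.40 for Tuba4a, with a median of 0.22 against 0.01 over all genes. All 10 estimates rest on the same 16 libraries. Those of Tuba1a, Tuba4a, Tubb2a, Tubb2b, Tubb3 and Tubb4b also turned below 0 when some single libraries were left out. The spread between libraries was wider in axons than in somata, with common dispersions of 0.302 and 0.0535 (edgeR). The tests shared each gene's dispersion between compartments, and Tubb3 had an SE of 0.471 in both genotype comparisons. No genotype interval above therefore measures the spread of its own compartment alone.

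Axonal libraries of the same genotype differed widely for some isotypes. In the third libraries of both genotypes Tubb3 was at 124 and 116 CPM, the lowest of each group, and the pan-neuronal sums there, at 329 and 184 CPM, were also the lowest. Tubb4b was at 771 and 969 CPM in these libraries and the pericyte or smooth muscle sums at 11215 and 9979 CPM, the highest of each group. The first Hnrnpr-/- axonal library was the reverse, with the highest axonal Tubb3 at 662.5 CPM, the highest pan-neuronal sum at 3058 CPM and the lowest Tubb4b of its group at 375 CPM. The part of other cell types in these differences was not tested.

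**Figure D5:**
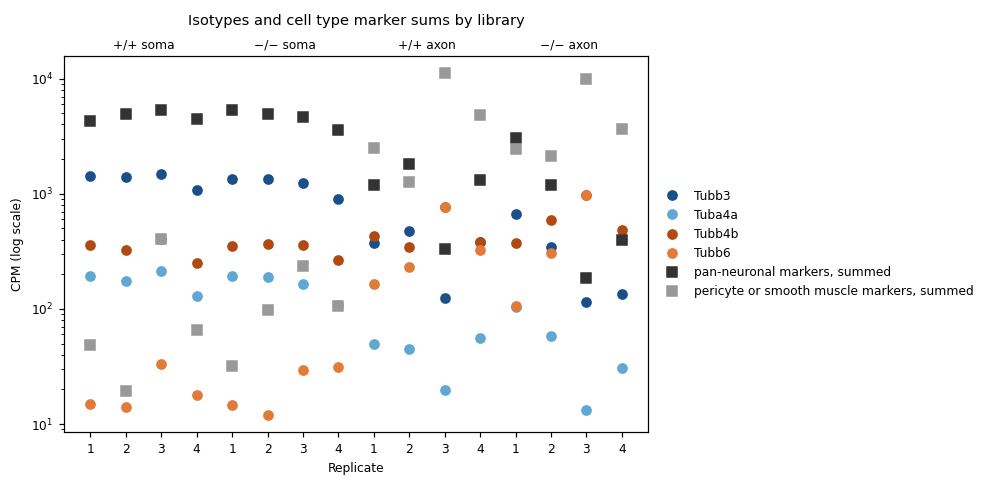
CPM on a log scale in each library of the 4 groups for Tubb3, Tuba4a, Tubb4b and Tubb6 (circles) and for the summed pan-neuronal and pericyte or smooth muscle markers (squares). In the third axonal libraries Tubb3, Tuba4a and the pan-neuronal sum are lowest, and Tubb4b, Tubb6 and the pericyte or smooth muscle sum are highest.

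Of the 10 other tubulin genes examined, 6 passed the filter, and edgeR called 3 higher and 1 lower in axons of each genotype and none between genotypes, where 57.5% and 54.2% of all genes were called in either direction between compartments. The largest difference was that of Tubb6, a divergent beta isotype of many non-neuronal tissues, which had 14.9, 14, 33 and 18 CPM in +/+ somata and 163, 231, 768 and 326 CPM in +/+ axons (log2 4.22 ± 0.67 SE, edgeR adjusted p = 0.00018). In Hnrnpr-/- axons it had 107, 303, 983 and 402 CPM, and its highest value in each genotype was again in the third library. Tubd1, the centriolar delta tubulin, was at 1.05 ± 0.26 (SE, edgeR adjusted p = 0.0035) and Tubg2, a gamma tubulin of microtubule nucleation, at -1.32 ± 0.35 (SE, edgeR adjusted p = 0.0048).

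Of the 14 genes that fold tubulin or adjust its mRNA, edgeR called 5 higher and 2 lower in +/+ axons and 8 higher and 1 lower in Hnrnpr-/- axons, where 30.1% and 27.5% of all genes were called higher and 27.4% and 26.8% lower. The cofactor of beta tubulin folding Tbca was at 1.58 ± 0.34 (SE, edgeR adjusted p = 0.0013) and the prefoldin subunit Pfdn1 at 1.36 ± 0.19. Tbcd, which assembles the heterodimer, was at -1.27 ± 0.18 (SE, edgeR adjusted p = 8.15e-05). None was called between genotypes in either compartment.

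Of 20 tested enzymes that modify tubulin, 2 were called higher and 11 lower in +/+ axons and 2 higher and 8 lower in Hnrnpr-/- axons by edgeR, where 57.5% and 54.2% of all genes were called in either direction and 27.4% and 26.8% lower. Among called enzymes with a mean of at least 5 CPM the lowest differences were those of Vash2, a tyrosine-removing carboxypeptidase, at -2.31 ± 0.45 (SE), Agtpbp1, which removes glutamates from the tail, at -2.22 ± 0.44 (SE), and the deacetylase Hdac6 at -1.62 ± 0.22 (SE). Of the 8 tested genes of the gamma-tubulin ring complex, which nucleates microtubules, 2 were called higher and 3 lower in either genotype. Nedd1, which targets the complex, was at 1.78 ± 0.22 (SE), Tubgcp6 at -1.03 ± 0.24 (SE) and Tubgcp4 at -0.86 ± 0.18 (SE) in +/+ axons. No gene of these lists was called between genotypes.

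Genes with the most similar profile were sought by Pearson correlation of log2 CPM among 11217 genes with a mean of at least 10 CPM, as a description without a test, in libraries that share compartment, cultures and scaling. For Tubb3 over all 16 libraries these were Gnaz, Soga3, Snap91 and Fstl5 (r = 0.995) and Magee1 (r = 0.993), and over the 8 axonal libraries Cnr1 (r = 0.996), Snap91 (r = 0.995), Scn1a, Ankrd13b and Fstl5 (r = 0.994). For Tuba1a over all libraries they were Slc7a11 and Gm3756 (r = 0.980), Tagap1 (r = 0.974), Fbxo34 and Got1 (r = 0.972), and over the axonal libraries Sms-ps, Eid2, Tmub1, Arrb1 and Slc7a11 (r from 0.975 to 0.989). For Tubb2b they were Clcn3, Lrrtm1, Zmynd19, Iqsec1 and Gm52102 (r from 0.967 to 0.981), and in axons Kat5, Clcn3, Tsc1, Marcksl1 and Zfp398 (r from 0.947 to 0.965).

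For Tuba1b the closest gene was Gm14150 in all libraries (r = 0.991) and in the axonal libraries (r = 0.993), and 523 of the 1257 coding windows of Tuba1b occur in that predicted gene. The next in all libraries were Gm5620, Pik3cb, Actr1b and LOC118568312 (r from 0.850 to 0.897), and in axons Nfyc, Aarsd1, Eif2b1 and Anapc15 (r from 0.982 to 0.988). For Tubb5 they were Gm6682, Gm5620, Cit, Gm3226 and Gm15599 (r from 0.954 to 0.967), and in axons Gm14150, Insig1, Cit, Mgat5 and Kctd15 (r from 0.930 to 0.950). Of the 42 distinct genes in these lists, 7 share coding windows with an alpha isotype.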

How the data were processed

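RNA was sequenced in 16 libraries, 4 per group, grouped by genotype and compartment from the labels. The authors made cDNA from poly(A) RNA with SMART-Seq v4, a kit that does not mark strand, aligned reads with STAR 2.7.2b to GRCm39 and counted exons with featureCounts 1.6.4, dividing multi-mapping and overlapping reads into fractions. The deposited values are therefore expected counts per gene, without normalization, and were rounded to whole numbers here. The study's methods state a reverse-strand setting for counting. With a kit that does not mark strand, reads of the other orientation would then be left uncounted for their gene, or be counted for an overlapping gene on the other strand (Flot1 for Tubb5, Bphl for Tubb2a). The share affected was not measured here. The study describes 4 biological replicates, and whether same-numbered compartments come from 1 chamber is not given in the labels.

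edgeR 4.0.16 in R 4.3.3 was used (filterByExpr, TMM scaling, quasi-likelihood test over all 16 libraries, Benjamini-Hochberg over 19964 genes, threshold 0.05). The fits were also run on simulated libraries with the same spread in every group, unlike the wider axonal spread of the data. That run therefore cannot check the calls made here. CPM are counts over the TMM-scaled library total. DESeq2 1.42.0, other scalings, filters and blocks were alternatives. Same-numbered libraries deviated together in all 4 pairs of Hnrnpr-/- compartments (r from 0.178 to 0.564) and in 3 of 4 +/+ pairs (r from 0.0943 to 0.279) by more than 0.1. Between genotypes r was from 0.0344 to 0.763 in axons, against -0.569 to 0.417 for unlike numbers. In somata it was from -0.0155 to 0.437, against -0.319 to 0.302. The paper reports that control and treatment conditions shared a batch of cells, but the labels give no batch. The main fit had no replicate term. Coding windows and ends came from GENCODE vM39 on GRCm39 (Biopython 1.88). The isotypes and gene lists were chosen with earlier results of these data known. Named are the 10 isotypes, Hnrnpr, up to 3 called genes per tubulin list with the largest +/+ compartment difference and a mean of at least 5 CPM, the 5 most similar genes of 5 isotypes, and the markers of motoneurons and of pericytes or smooth muscle, which were named after their values were seen. Protein sequences were not used here, and the coding ends of the alpha genes are not reported here.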

Additional observations from a re-analysis of the deposited data

Results flagged for a closer look

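The highest and lowest library of each isotype in each group were compared with the other 3 by Dixon's ratio, 40 sets in all, of which 2 passed its 95% critical value, and chance alone flags about 1 in 20. Tubb4a in the second Hnrnpr-/- somatodendritic library was at 518 CPM while the other 3 lay between 431 and 445 CPM (ratio 0.833). Tubb4b in the fourth Hnrnpr-/- somatodendritic library was at 267 CPM while the other 3 lay between 355 and 366 CPM (ratio 0.90), and this is a library on which the Hnrnpr-/- axonal call of Tubb4b depends.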

How the results depend on the processing

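The number of isotypes called stayed between 8 and 9 for +/+ compartments, between 7 and 9 for Hnrnpr-/- compartments and at 0 for both genotype comparisons and the genotype by compartment test, over all 132 counts recomputed. With the replicate block 9 isotypes were called between compartments in +/+ (0 higher) and 9 in Hnrnpr-/- (1 higher), and 0 elsewhere. Tuba1b in +/+ was then called (-0.38, edgeR adjusted p = 0.018), as with genotype and number as a block (-0.39, adjusted p = 0.043), where 1 of the 4 same-numbered +/+ pairs was at r = 0.0943, under the limit of 0.1, although each +/+ library correlated best with its own number, a hint from the data and not from the design. Calls that changed on leaving out 1 library were Tubb4b in Hnrnpr-/- (lost without KO axonal replicate 3 or somatodendritic replicate 4), Tuba1b in +/+ (gained without WT axonal replicate 3) and Tuba1c in Hnrnpr-/- (gained without KO axonal replicate 1, KO somatodendritic replicate 4 or WT axonal replicate 2, and with DESeq2 defaults at -0.32). Of 1320 recomputed differences 44 reversed, none of them called. The median of all genes moved from 0.07 to 0.22 in +/+ and from -0.003 to 0.12 in Hnrnpr-/- compartments with unscaled library totals, where Tuba1b in Hnrnpr-/- turned to 0.0356 and Tubb4a between somata to 0.00701. The genotype by compartment estimate of Tubb3 turned to -0.0907 with the replicate block and -0.17 with genotype and number as a block. Without the third axonal libraries Tubb4b between somata turned to -0.00514 and Tubb2b between axons to 0.0242. Leaving out each library in turn gave, between axons of both genotypes, -0.0895 to 0.15 for Tuba1a, -0.32 to 0.61 for Tuba4a, -0.18 to 0.26 for Tubb2a, -0.16 to 0.11 for Tubb2b, -0.77 to 0.18 for Tubb3 and 0.0178 (without KO axonal replicate 3) to 0.66 (without WT axonal replicate 3) for Tubb4b. Between somata it gave -0.0936 to 0.026 for Tuba1a, -0.11 to 0.00626 for Tuba1b, -0.12 to 0.00159 for Tuba1c, -0.23 to 0.0381 for Tuba4a, -0.12 to 0.0488 for Tubb2b, -0.0619 to 0.0336 for Tubb4a, -0.0835 to 0.13 for Tubb4b and -0.14 to 0.0295 for Tubb5. For the genotype by compartment estimate it gave -0.0332 to 0.20 for Tuba1a, -0.20 to 0.71 for Tuba4a, -0.0672 to 0.38 for Tubb2a, -0.10 to 0.17 for Tubb2b, -0.61 to 0.32 for Tubb3 and -0.0114 to 0.63 for Tubb4b, and for Tuba1b between Hnrnpr-/- compartments -0.18 to 0.00133. The cause of these changes was not tested. Without division by exon length 38 of 56 shares and ratios moved by more than 1 SD, and the log2 ratio of Tubb5 to Tubb3 in +/+ somata then was 0.20 in place of -0.40. With Tubb6 in the beta pool 4 of 56 moved, among them the log2 alpha to beta ratio in +/+ axons (1.10) and Hnrnpr-/- axons (1.07). The annotated exon length of Tuba4a, 4165 bases against a coding length of 1347, lowers its level per kb.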
